A study of Mus musculus with 3 samples.

Results

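ETO2 (gene symbol Cbfa2t3) is a co-repressor: it does not bind DNA by itself but is carried to chromatin by complexes of the transcription factors SCL and GATA, and it brings in enzymes that remove activating histone marks. The genes described here encode GSE1, FOG1 and proteins that work in such co-repressor complexes. They are 9 of the 22380 protein-coding genes of the mouse annotation (GENCODE, build mm9). Gse1 and Zfpm1 were chosen by the number of ETO2 peaks nearest to them in these same lists, whereas Kdm1a, Rcor1, Hmg20b, Irf2bp2, Ncor1, Hdac1 and Hdac2 were included for what their proteins do. A peak was assigned to a gene when its summit lay in the gene body or within 100 kb of it, or when the nearest protein-coding start site was that of the gene. Overlapping peaks of the replicates were joined into 1 region, which gave 3192 regions in the genome, of which 21 were assigned to these genes.

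Wild-type mouse embryonic stem (ES) cells (line J1 in the study's methods, strain given as C57Bl/6 X Sv129) were grown as embryoid bodies. The study states that cross for its mice and no strain for the ES cells. Cells carrying FLK1, a receptor that marks mesoderm with blood and vessel potential, were isolated on magnetic columns. The sample labels put this at day 4 (the design text of the series gives an earlier stage). ETO2 was measured by chromatin immunoprecipitation and sequencing (ChIP-seq) in 2 samples, called replicate 1 and replicate 2, and 1 input sample was sequenced without immunoprecipitation. Replicate 1 was called against the input and gave 2335 peaks, with 12 to 206 fragments at the summit (median 27.0). Replicate 2 was called without an input, so that its background came from the ChIP library itself, and gave 1873 peaks with 18 to 236 fragments (median 35.0). The average fragment coverage of the genome was not measured. It was taken as the lowest background solved at any peak, since the peak caller uses no value below the genome average. This gave 3.02 fragments in the replicate 1 ChIP and 5.19 in the replicate 2 ChIP. The design text describes separate differentiations, but both peak lists carry the same ChIP name. Intervals and p-values below therefore cover counting error between these libraries only, and no treated or mutant group was compared. Peak lists hold no expression values, so the labelled cell type could not be checked against expressed markers.

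ETO2 works with several families of co-repressor proteins. KDM1A (LSD1) removes methyl groups from histone H3, and RCOR1 (CoREST) links it to the histone deacetylases HDAC1 and HDAC2. HMG20B (BRAF35) and GSE1 are found in complexes of the same kind. NCOR1 is a scaffold that binds ETO-family proteins and another deacetylase, HDAC3. IRF2BP2 is a co-repressor partner of ETO2 in red blood cell precursors, and FOG1, the product of Zfpm1, binds GATA1 and recruits the NuRD deacetylase complex.

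The summit sequences of the Gse1 regions called in both replicates are shown first, since these are the regions nearest to Gse1 present in both lists. They lie at chr8:122894011-122894110, chr8:122895795-122895894, chr8:122986237-122986336, chr8:122999536-122999635 and chr8:123011040-123011139 (mm9, plus strand, 5′ to 3′), 50 bases before the summit base and the rest from it on. Regions are named by the gene and the distance of the replicate 1 summit from its first annotated start site, with upstream negative. Capitals mark a GATA motif (GATA with A or T before it and A or G after it, which reads as TATC between T or C and A or T when it lies on the other strand) and the CTG and GATA of the composite motif that SCL and GATA complexes bind (CTG, then 7 to 10 bases of any kind, then GATA, on either strand). The GATA of a composite match can be that of a GATA motif, and then only the CTG (or CAG) adds letters.
Gse1 -118.7 kb: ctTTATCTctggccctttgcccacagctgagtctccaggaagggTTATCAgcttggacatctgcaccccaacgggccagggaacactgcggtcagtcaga
Gse1 -116.9 kb: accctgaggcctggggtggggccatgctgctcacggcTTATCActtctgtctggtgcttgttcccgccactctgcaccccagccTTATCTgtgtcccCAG
Gse1 -26.5 kb: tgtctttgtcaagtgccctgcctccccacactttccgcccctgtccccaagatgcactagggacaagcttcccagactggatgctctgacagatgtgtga
Gse1 -13.2 kb: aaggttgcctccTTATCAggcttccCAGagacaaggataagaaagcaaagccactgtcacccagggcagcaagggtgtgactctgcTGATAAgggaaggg
Gse1 -1.7 kb: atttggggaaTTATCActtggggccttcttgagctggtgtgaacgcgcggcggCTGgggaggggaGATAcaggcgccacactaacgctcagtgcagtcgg

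The Zfpm1 windows follow, in the same format, at chr8:124808458-124808557, chr8:124810958-124811057, chr8:124833352-124833451, chr8:124837382-124837481, chr8:124845709-124845808 and chr8:124846788-124846887. The last 2 of the 6 lie inside Zfpm1 but nearer to the start site of Trhr2, and were added because of that position.
Zfpm1 +2.5 kb: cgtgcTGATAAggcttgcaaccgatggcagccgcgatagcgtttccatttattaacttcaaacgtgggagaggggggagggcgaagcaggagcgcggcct
Zfpm1 +5.0 kb: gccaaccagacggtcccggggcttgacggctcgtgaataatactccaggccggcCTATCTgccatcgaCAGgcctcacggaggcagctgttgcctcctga
Zfpm1 +27.4 kb: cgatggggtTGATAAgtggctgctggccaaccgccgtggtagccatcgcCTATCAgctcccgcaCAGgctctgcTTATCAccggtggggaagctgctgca
Zfpm1 +31.4 kb: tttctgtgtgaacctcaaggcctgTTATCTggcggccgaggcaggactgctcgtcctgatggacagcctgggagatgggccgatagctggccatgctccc
Zfpm1 +39.7 kb: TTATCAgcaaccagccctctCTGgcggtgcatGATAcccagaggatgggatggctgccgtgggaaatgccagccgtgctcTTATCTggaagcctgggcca
Zfpm1 +40.8 kb: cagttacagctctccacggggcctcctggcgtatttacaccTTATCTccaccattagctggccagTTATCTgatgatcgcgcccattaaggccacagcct

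Of the other genes only Hmg20b and Irf2bp2 had a region, and the strongest of each is shown for contrast, at chr10:80844930-80845029 and chr8:129054827-129054926. Both were called in replicate 1 alone. The Irf2bp2 window, made of near-identical short repeats, holds neither marked motif, and the Hmg20b window holds a composite match without a GATA motif.
Hmg20b -31.8 kb: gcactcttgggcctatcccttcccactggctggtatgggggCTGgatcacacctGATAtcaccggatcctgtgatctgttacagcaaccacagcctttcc
Irf2bp2 +62.5 kb: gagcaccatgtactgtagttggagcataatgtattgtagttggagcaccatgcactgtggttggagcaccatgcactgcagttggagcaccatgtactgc

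ETO2 regions were found at 4 of the 9 genes, and regions called in both replicates at 2 of them, Gse1 and Zfpm1. Over all protein-coding genes the same assignment gave a region to 27.9% and a region of both replicates to 11.1%. Gse1 had 10 regions and Zfpm1 had 8, of which 5 and 6 were called in both replicates. Hmg20b had 2 regions and Irf2bp2 had 1, all called in replicate 1 alone, and none of these was nearer to the start site of its own gene than to that of another. Kdm1a, Rcor1, Ncor1, Hdac1 and Hdac2 had none. Leaving out Gse1 and Zfpm1, 2 of the 7 genes had a region and 0 had a region of both replicates, so that the share with a region was near that of all genes. Since Gse1 and Zfpm1 were chosen for their peaks, their counts are a description and were not tested.

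**Figure D1:**
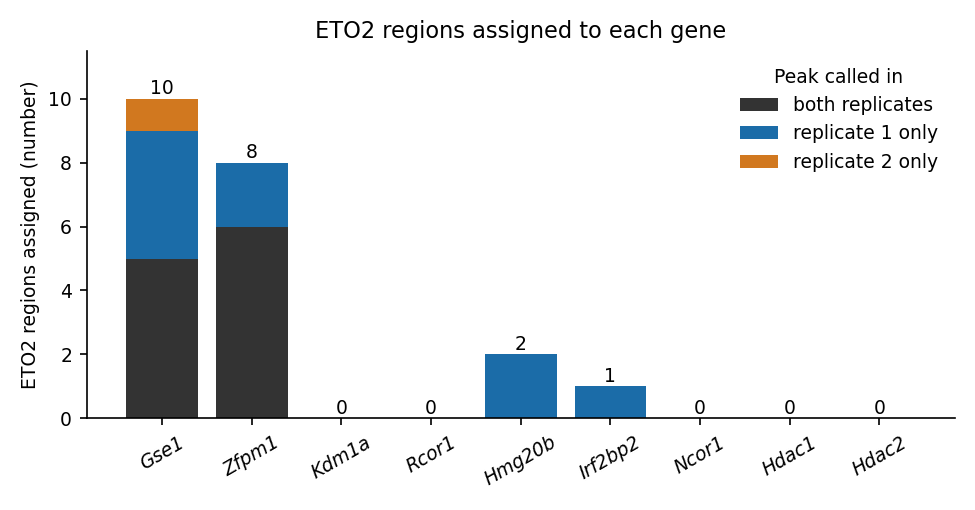
Number of ETO2 regions assigned to each of the 9 genes (vertical axis), with bar segments for regions called in both replicates, in replicate 1 only and in replicate 2 only, and the total above each bar. Gse1 (10) and Zfpm1 (8) hold 18 of the 21 regions and all 11 that were called in both replicates.

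Of the 21 regions, 11 were called in both replicates, beside 31.4% of all regions in the genome. All 11 were at Gse1 and Zfpm1, the genes chosen for their peaks, and of the 3 regions of the other 7 genes 0 were. As a nearest gene, Gse1 was nearest to 10 regions and Zfpm1 to 5, whereas 9.71% of protein-coding genes were nearest to any. Both genes were chosen by this number, so their place by it restates that choice. There were 6 genes nearest to more regions than Gse1, and 30 nearest to more than Zfpm1. By regions of both replicates, Gse1 was nearest to 5, and the genes with more were Runx1 (6) and Smad7 (7), which are named here because they outrank it.

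Gse1 lies on chromosome 8 (chr8:123012766-123105290, plus strand, 92.5 kb) and has 4 annotated start sites. All of its 10 regions lay upstream of the first start site, between 1.7 and 153.9 kb away, and 0 lay in the gene body. They fell in the 311 kb between Gse1 and the next protein-coding gene upstream, Fam92b, and were intergenic apart from a read-through gene model (Gm20388, 4.43 Mb) that spans Gse1, Zfpm1 and Cbfa2t3. A later RefSeq annotation of another build begins Gse1 further upstream with predicted transcripts, so part of this stretch can be counted as intron there. Of the 10 regions, 6 were within 100 kb of the gene, and the others were assigned because the Gse1 start site was nearest.

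The strongest Gse1 regions form a pair far upstream. The region at 116.9 kb had a fold enrichment over local background of 22.9 in replicate 1 (160 fragments at the summit, 95% Poisson interval 136 to 187) and of 9.79 in replicate 2 (166 fragments, 142 to 193). It ranked 8 of 2335 by fold enrichment in replicate 1, and 83 of 1873 in replicate 2. By −log10 of the p-value it ranked 2 and 12. Its neighbour at 118.7 kb, 1.78 kb further out, had a fold enrichment of 16.8 in replicate 1 (144 fragments, 121 to 169.5) and of 9.77 in replicate 2 (165 fragments, 141 to 192). The summits of both regions were within 5 bp of each other in the 2 lists. These levels cannot be set against each other between the lists, since the controls differed: local background at the 116.9 kb summit was 6.28 fragments in replicate 1 and 16.1 in replicate 2.

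The other Gse1 regions of both replicates stood closer to the gene and were weaker. At 26.5 kb upstream the fold enrichment was 10.1 in replicate 1 (67 fragments) and 5.15 in replicate 2 (50 fragments). At 13.2 kb it was 5.88 (65 fragments) and 4.93 (46 fragments). The region nearest to the promoter, at 1.7 kb, had 4.83 in replicate 1 (64 fragments) and 6.53 in replicate 2 (76 fragments). It also had the highest replicate 1 background of the Gse1 regions, 12.7 fragments.

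Regions of Gse1 called in a single replicate had the fewest fragments. In replicate 1 they lay at 153.9, 152.7, 32.3 and 24.2 kb upstream, with fold enrichments of 3.91, 4.95, 3.02 and 4.33 and with 33, 29, 15 and 24 fragments. The region called in replicate 2 alone, at 9.0 kb, had a fold enrichment of 3.58 and 34 fragments. The absence of a call in the other list does not show that ETO2 was absent there, because coverage below the calling threshold is not in these lists.

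Zfpm1 lies 1.70 Mb beyond Gse1 on the same chromosome (chr8:124806039-124861146, plus strand, 55.1 kb), and the near edge of Cbfa2t3, which encodes ETO2 itself, is 291 kb further on. In contrast to Gse1 with the start sites used here, 7 of the 8 Zfpm1 regions were inside the gene, all in introns. The eighth lay 91.8 kb upstream, just within the 100 kb limit and nearest to Gm22, and was called in replicate 1 alone (fold enrichment 3.74, 16 fragments). Among the genes without a region, the closest call outside the limit was 144 kb from Ncor1, also in replicate 1 alone.

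The regions inside Zfpm1 lay between 2.5 and 40.8 kb from the start site, and those with the most fragments were at 27.4, 31.4, 39.7 and 40.8 kb. The strongest, at 31.4 kb, had a fold enrichment of 22.7 in replicate 1 (139 fragments, 117 to 164) and of 8.31 in replicate 2 (128 fragments, 107 to 152), and ranked 10 and 169 in the lists by fold enrichment. The region at 27.4 kb had fold enrichments of 18.3 (112 fragments) and 7.45 (109 fragments). The region at 39.7 kb, also strong, had 22.5 (135 fragments) and 7.26 (91 fragments). These 3 regions ranked best by −log10 p among those of the gene in either list.

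The region at 40.8 kb, 1.08 kb beyond the last, was of intermediate strength, with fold enrichments of 10.1 (100 fragments) and 4.78 (59 fragments). Near the start site, the regions at 2.5 and 5.0 kb had 5.78 (39 fragments) and 6.19 (50 fragments) in replicate 1, and 4.13 (44 fragments) and 3.59 (38 fragments) in replicate 2. The summits of the 2.5 kb region were 166 bp apart in the 2 lists, the widest gap among the 11 shared regions, whereas the other 10 were at most 28 bp apart. A further intronic region at 32.9 kb was called in replicate 1 alone (6.11, 32 fragments). The regions at 39.7 and 40.8 kb were 38.89 and 37.81 kb from the start site of Trhr2, a receptor gene, and by nearest start site alone they belong to that gene.

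**Figure D2:**
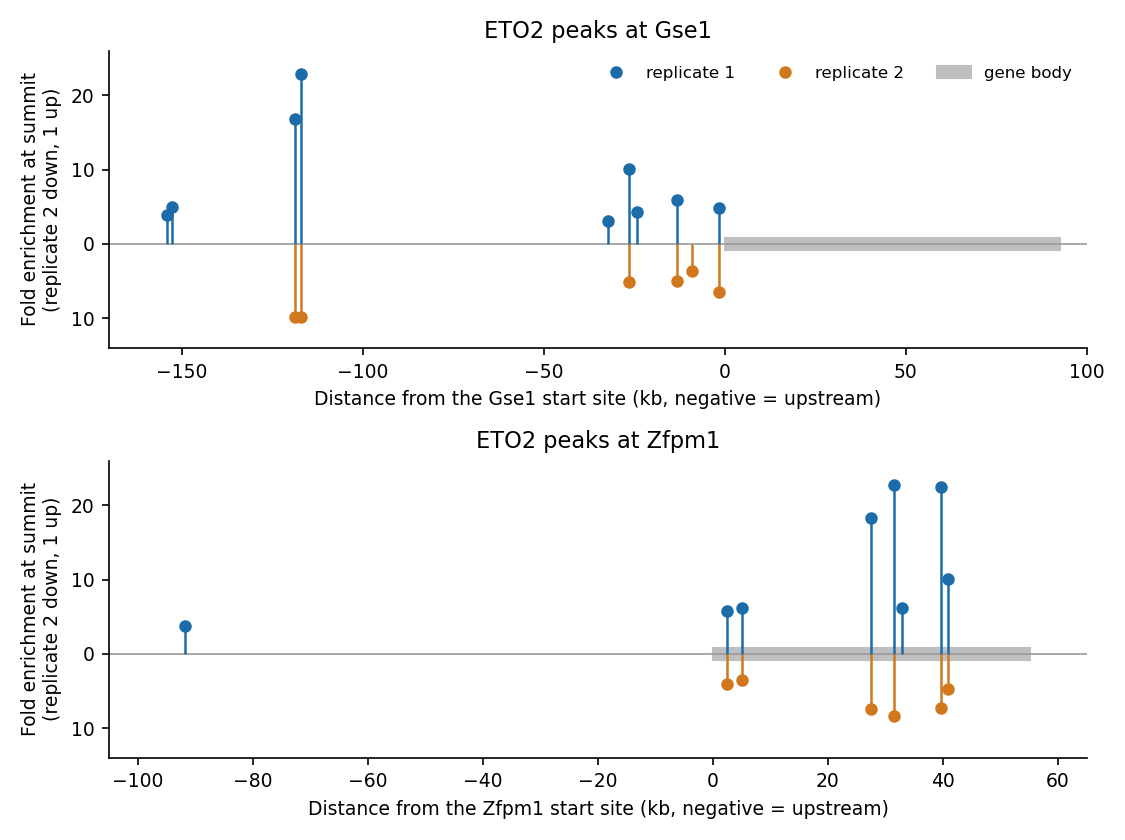
Fold enrichment at the summit of each peak assigned to Gse1 (top) and Zfpm1 (bottom) against distance from the first start site in kb, with replicate 1 drawn upwards, replicate 2 downwards and the gene body as a grey bar. All Gse1 regions are upstream of the gene as annotated here with the strongest pair near 117 kb, and 7 of the 8 Zfpm1 regions are in the gene body.

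By their median, the shared regions of both genes were strong for these lists, but single regions varied widely. Fold enrichment of the 11 regions had a median of 10.1 in replicate 1 (range 4.83 to 22.9) and of 6.53 in replicate 2 (3.59 to 9.79). For all 1002 shared regions the medians were 6.83 and 5.39. By fold enrichment, the median of these 11 regions stood at the top 10.2% of the replicate 1 list and the top 21.1% of the replicate 2 list, which also hold the peaks called in a single replicate. Single regions among the 11 ran from the top 0.343% to 59.1% in replicate 1 and from 4.43% to 88.4% in replicate 2. For all 1002 shared regions the median stood at 26.8% and 37.1%, and for all member regions, single-replicate ones included, at 39.6% and 32.7%, beside 49.3% and 49.4% for all regions. By −log10 p the median of the 11 shared member regions stood at the top 2.83% and 10.3%, and by fragments over the genome average at the top 1.46% and 8.92%. These ranks are also within the full lists, and ranks of all 1002 shared regions by these measures are not given here. Part of the high place can therefore come from the call in both replicates. Median fragments over the genome average were 33.1 and 14.6 at the 11 regions, beside 12.2 and 6.94 at all shared regions. Median local background was 5.96 fragments at replicate 1 peaks of chromosome 8 and 4.09 on autosomes other than 1 and 8, and in replicate 2 it was 8.10 and 5.37. The part of this higher background in the ranks by fragments was not tested.

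**Figure D3:**
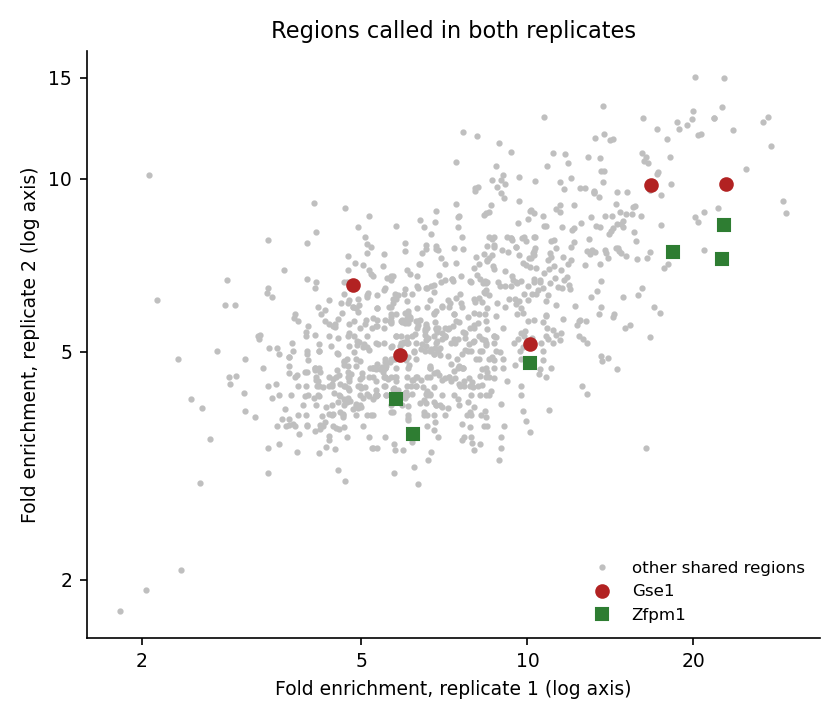
Fold enrichment in replicate 2 against replicate 1, both on log axes, for the 1002 regions called in both replicates, with the 5 Gse1 regions as red circles, the 6 Zfpm1 regions as green squares and the others in grey. The strongest member regions lie at the right of the cloud, near 20-fold in replicate 1, and below 10-fold in replicate 2.

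To find whether any region differed in strength between the libraries, the summit fragments of each shared region were compared by a 2-sided exact binomial test against the median ratio over all shared regions, adjusted by Benjamini-Hochberg over all 1002. Of these, 2.10% were called at an adjusted p under 0.05, and 0 of the 11 member regions. The pair inside Zfpm1 nearest to Trhr2 came closest, with fewer fragments in replicate 2. At 40.8 kb the fragment ratio of replicate 2 to replicate 1 was 0.590 (95% interval 0.420 to 0.822, exact p = 0.00143, adjusted p = 0.0599). At 39.7 kb it was 0.674 (0.511 to 0.886, exact p = 0.00413, adjusted p = 0.0941). These were the 2 member regions at an unadjusted p under 0.05. For the Gse1 pair the ratios were 1.04 at 116.9 kb (0.830 to 1.30) and 1.15 at 118.7 kb (0.911 to 1.44). The outcome depends on the expected ratio: against the ratio of the genome averages (1.72), 9 of the 11 member regions were called, all relatively higher in replicate 1, beside 52.5% of the shared regions.

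**Figure D4:**
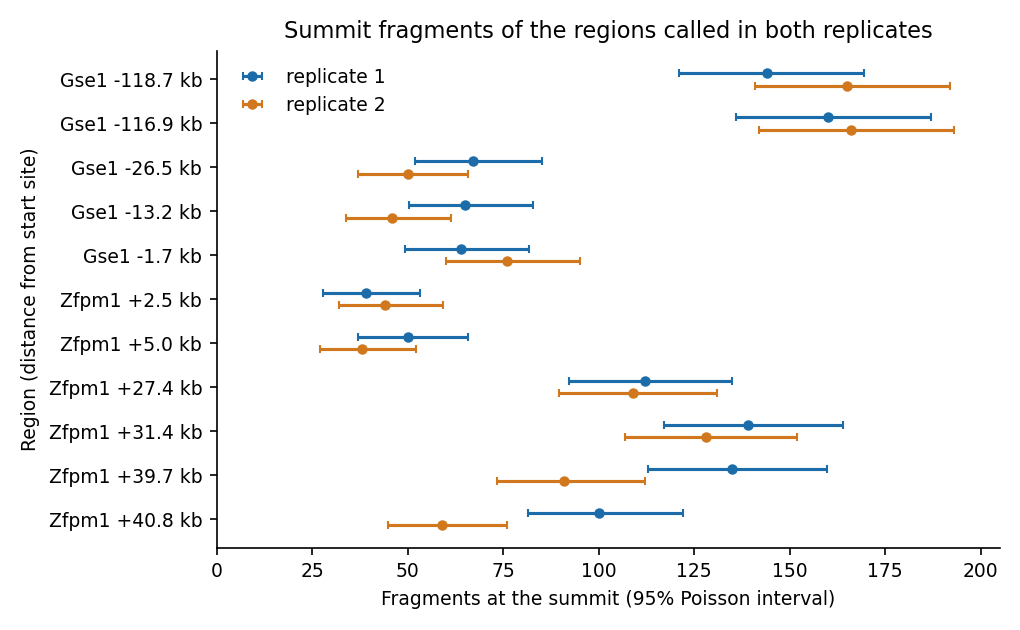
Fragments at the summit (horizontal axis) of the 11 regions of Gse1 and Zfpm1 called in both replicates, with 95% Poisson intervals, replicate 1 in blue and replicate 2 in orange. The intervals of the replicates overlap at every region apart from those 39.7 and 40.8 kb into Zfpm1.

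GATA motifs were present at nearly every shared region. In the 100 bp centred on the replicate 1 summit, 10 of the 11 regions held one (90.9%, 95% Wilson interval 62.3 to 98.4), 4 of 5 at Gse1 and 6 of 6 at Zfpm1. In windows of the same length 500 bp to each side, 2 of 22 did. Over all shared regions 72.5% held a GATA motif, and 16.7% of their flanks. Of the 10 member regions called in a single replicate, 3 held one. Among all regions, 57.8% of those called in replicate 1 alone and 27.7% of those called in replicate 2 alone held one. Gse1 at 9.0 kb, which held one, was the only member region called in replicate 2 alone. The shared region without a match, Gse1 at 26.5 kb, has its closest GATA motif 69.5 bp from the summit. The window centred on its replicate 2 summit, 22 bp away, holds one.

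As the printed windows show, several regions carried more than 1 GATA motif. The region 27.4 kb into Zfpm1 has 3, the closest centred 1.5 bp from the summit, and the strong Gse1 pair has 2 each, with the closest 3.5 and 10.5 bp from the summit. At 40.8 kb in Zfpm1 both matches are the same 6 letters, TTATCT, in the same orientation.

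The composite of CTG and GATA was found in 6 of the 11 shared regions (54.5%, 28.0 to 78.7) and in 1 of the 22 flanks, beside 39.3% of all shared regions and 3.99% of their flanks. Between CTG and GATA the Gse1 matches had 8 bases at 116.9 kb, 8 at 13.2 kb and 9 at 1.7 kb. The Zfpm1 matches had 9 bases at 5.0 kb, 10 at 27.4 kb and 9 at 39.7 kb. Of the 2 strongest regions of each gene by fold enrichment in replicate 1, the Gse1 region at 116.9 kb and the Zfpm1 region at 39.7 kb have a composite match, whereas the Gse1 region at 118.7 kb and the Zfpm1 region at 31.4 kb have none.

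The other motifs were each in 4 or fewer of the 11 regions. A full E-box (CANNTG), the site of SCL and its partners, was in 4 of 11 (36.4%), 3 of them at Gse1, beside 47.8% of all shared regions. It was also in 6 of the 22 flanks and in 41.9% of the flanks of all shared regions. The core of ETS factor sites (AGGAA) was in 1 of 11 (9.09%, 1.62 to 37.7), at 118.7 kb upstream of Gse1, beside 46.0% of all shared regions. Of the 22 flanks 8 held it, and 33.3% of the flanks of all shared regions. The letters CCAACC were in 2 of 11, both in Zfpm1, beside 4.09%, and a control in which the GATA motif is read backwards without complement (ATAG with A or G before it and A or T after it) was in 0 of 11, beside 13.5%. With 11 regions these shares have wide intervals. A motif match is a description of the letters and does not show which protein bound.

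**Figure D5:**
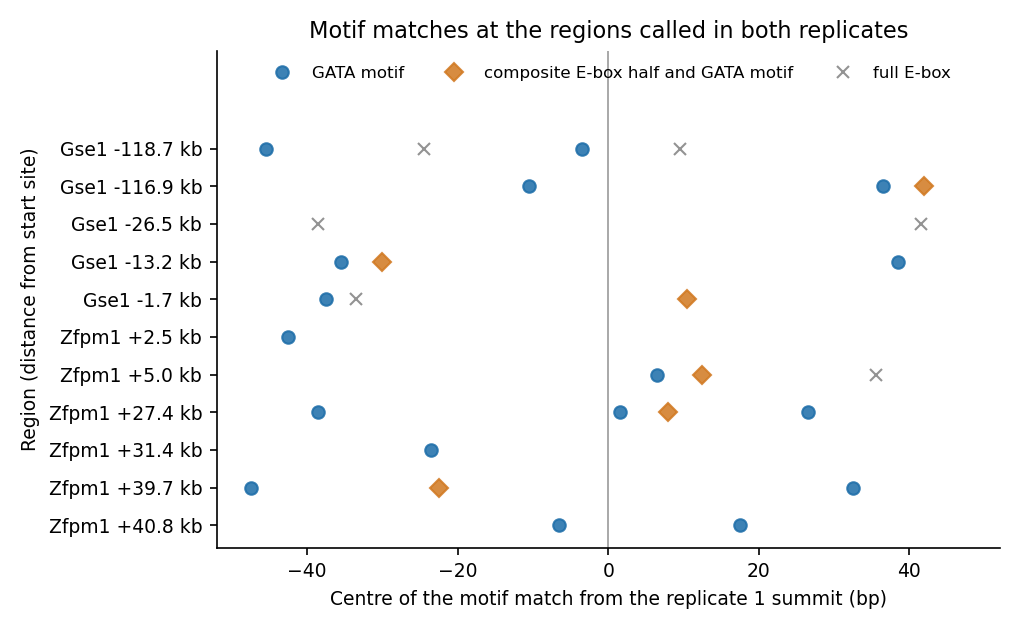
Centres of the motif matches within 50 bp of the replicate 1 summit (0 on the horizontal axis, in bp) at the 11 shared regions, with circles for the GATA motif, diamonds for the composite of CTG and GATA, and crosses for the full E-box. GATA motifs are drawn at 10 of the 11 regions and composites at 6.

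The remaining genes had 3 regions between them. At Hmg20b, 1 region lay 57.3 kb downstream of the start site, in an intron of Pip5k1c 0.16 kb from the start of that gene (fold enrichment 3.84, 24 fragments), and the other lay 31.8 kb upstream, 2.19 kb from the start of Dohh (4.96, 22 fragments). The Irf2bp2 region lay 62.5 kb downstream of its start site and nearest to Gm17296 (4.44, 16 fragments). These 3 regions were below the median fold enrichment of replicate 1, 5.24.

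For the genes without a region, the closest one in the genome was 144 kb from Ncor1, 219 kb from Hdac2, 233 kb from Kdm1a, 252 kb from Hdac1 and 319 kb from Rcor1. The closest region of both replicates was 281 kb from Hdac1, 319 kb from Rcor1, 446 kb from Kdm1a, 3130.0 kb from Hdac2 and 3192 kb from Ncor1. Only at Rcor1 was the closest region of any kind called in both replicates, and it was nearest to Tnfaip2. For Hmg20b and Irf2bp2 the closest region of both replicates was 648 and 554 kb away.

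The same assignment was made for 36 other genes of ETO, CoREST, SIN3, NuRD and related complexes. Of these, 17 had a region (47.2%, beside 27.9% of all genes) and 8 a region of both replicates (22.2%, beside 11.1%). The list was drawn up with earlier results of these data known. The 8 include Cbfa2t3, Runx1t1, Gfi1 and Gfi1b, which the study already names as repressor genes bound by SCL. The shares are therefore a description and were not tested. At 3 of the 8 a region of both replicates was nearest to the gene's own start site. Gfi1, among the 8, is not typed as protein-coding in this annotation, so its start site was not among those searched and it could not be nearest to its own region. Among the ETO family and the N-CoR complex, 5 of 8 genes had a region and 2 a region of both replicates. Among the CoREST genes, 1 of 7 had a region, and among the FOG, CtBP and NuRD genes 7 of 14 had a region and 2 a region of both replicates. Both SNAG-domain repressor genes, Gfi1 and Gfi1b, which recruit CoREST to DNA, had regions of both replicates in reach. The nearest protein-coding start site to those of Gfi1b was that of Gtf3c5.

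The 3 partner genes nearest to their own shared regions were Cbfa2t3, Runx1t1 and Phf21a. Cbfa2t3 had 5 regions of both replicates, as many as Gse1, and the strongest, 20.8 kb from its start site, had fold enrichments of 27.7 (206 fragments) and 11.4 (190 fragments). Runx1t1, which encodes the founding ETO protein, had 3, the strongest 478 kb away with 17.2 (64 fragments) and 12.2 (96 fragments). Phf21a (BHC80), a CoREST complex subunit, had 1, at 9.68 kb, with 13.8 (56 fragments) and 8.60 (61 fragments). By fold enrichment in replicate 1, the best Gse1 and Zfpm1 regions, at 22.9 and 22.7, lay between those of Cbfa2t3 and Runx1t1. By the same measure in replicate 2, at 9.79 and 8.31, they fell below both. Replicate 2 had no input, and local background at these summits reached 16.1 and 14.5 fragments there. Counted by summit fragments, both regions lay between Cbfa2t3 and Runx1t1 in either list. Gse1 had 160, then 166 in replicate 2, and Zfpm1 had 139, then 128.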

How the data were processed

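ETO2 ChIP-seq was made in 2 samples of FLK1+ mesoderm, with 1 input. The study fixed cells with EGS, then formaldehyde. Per the labels, the authors trimmed reads with Trim Galore, aligned them with Bowtie to mm9 and called peaks with MACS2 (version 2.0.10). The deposited values of a peak, all from MACS2, are a score (the q-value rescaled to a whole number), the ratio of summit signal to local background (fold enrichment), and the p-value and q-value as −log10. The deposited list of the whole series has positions only, and all 21 member regions overlapped it.

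Fragments at each summit were solved from the fold enrichment and p-value with a Poisson model, which matched 100% of peaks (tolerance 0.003 in −log10 p), after a test on simulated data. Regions were joined at 1 bp of overlap and assigned with GENCODE annotation of mm9, whose chromosome lengths bound all peaks. Motifs were counted on both strands. Shared regions were compared by an exact binomial test. Alternatives were the reach, stricter q-value and fold enrichment, stricter overlap, unique sequence, single replicates and motif windows. The members, lists, motifs and alternatives were chosen with earlier results of these data known. Named are the 9 genes with all their regions, and partner genes whose own start site is nearest to a region of both replicates. Other genes are named only as neighbours, or because of their values. The analysis used Python 3.11.15, numpy 2.4.6, scipy 1.17.1 and pandas 2.3.3.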

Additional observations from a re-analysis of the deposited data

How the results depend on the processing

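The number of member genes with a region of both replicates was 2 under each of the 6 alternatives tried for it. Each of these was stricter than the main setting, so the number could fall rather than rise. The 2 genes were chosen for their peaks, so this count is a description. Leaving out 1 replicate, Gse1 had 6 to 9 regions, Zfpm1 6 to 8 and the other 7 genes 0 to 3. A fold enrichment of at least 5 in each list lowered Gse1 to 5 regions, the other 7 genes to 0 and the regions of both replicates to 6. By nearest start site alone, Zfpm1 had 5 regions and the other 7 genes 0. With a 20 kb reach the other 7 genes had 0 regions and with 50 kb 1, while the share of all genes with a region was 13.5% and 19.1% (both replicates, 5.13% and 7.26%). At a q-value of 1e-05 or less these shares were 24.8% and 10.3%. The median rank of the shared member regions moved from the top 10.2% to 2.83% by −log10 p and 1.46% by fragments over the genome average in replicate 1, and from 21.1% to 10.3% and 8.92% in replicate 2. With the ratio of genome averages, 9 member regions and 526 of all shared regions differed in fragments. GATA motifs were in 100% of the shared member regions in 200 bp windows and 45.5% in 50 bp windows, and in 33.3% of all member regions in 50 bp windows. Leaving out 1 replicate, 60.0 to 100% of the member regions held a GATA motif, and 100% of the shared ones at replicate 2 summits. The causes of these shifts were not tested, apart from the stricter settings, which admit fewer peaks or bases by construction. No paired analysis was possible because the ChIP samples form a single group and the input has no peak list. With 15 to 34 fragments at member regions called in 1 replicate, a signal in the other library below its calling threshold was not detectable in these lists.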
